A study of Mus musculus with 4 samples.

Results

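The transcripts described here encode the CCAAT/enhancer-binding proteins (C/EBPs) and the Tribbles pseudokinases TRIB1 and TRIB2. They were taken by gene symbol (Cebpa, Cebpb, Cebpd, Cebpe, Cebpg, Cebpz, Trib1 and Trib2), and all 8 were found among 55426 genes. Poly(A)-selected RNA was sequenced from lineage-negative mouse bone marrow cells that had been transformed by a fusion oncogene. In MLL-ENL dYEATS cells the fusion of the histone methyltransferase MLL to ENL held ENL residues 372 to 559 and lacked the YEATS domain, a module that binds acylated histone lysines. In MLL-ENL cells it was the fusion that the labels call simply MLL-ENL, whose ENL residues the sources used here do not give, so other parts of ENL may differ between the fusions too. Both kinds of cell were grown in medium with 15% serum. Each group had 2 libraries, which the series' design text calls technical replicates. The sources used here do not say whether a group came from more than 1 culture or line. Thus p-values measure the spread between libraries, which may be technical, and the genotype and the line cannot be told apart. The strain, sex and age of the marrow donors, the promoter that drove the fusion and whether a line was clonal are likewise not given.

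C/EBPs are transcription factors that bind DNA as dimers through a basic region and a leucine zipper. C/EBP-alpha carries blood progenitors into the granulocyte and monocyte lineage, C/EBP-beta and C/EBP-delta act in stress-driven granulopoiesis and inflammation, and C/EBP-epsilon is needed for the last steps of granulocyte maturation. TRIB1 and TRIB2 are kinase-like scaffolds that bring C/EBP-alpha to the ubiquitin ligase COP1, which marks it for breakdown, and overproduction of either causes myeloid leukaemia in mice. Cebpa and Cebpb each give long and short proteins from the same mRNA by a choice of start codon, which reads of mRNA cannot tell apart.

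RefSeq promoter windows (GRCm38.p6) matched 4 of the 8 genes. The 250 bases before the annotated start are shown for Cebpa, whose transcript fell, and for Cebpb, the family member with the highest level, which did not pass the test. Both are on the + strand, at chr7:35119043-35119292 and chr2:167688665-167688914.
Cebpa: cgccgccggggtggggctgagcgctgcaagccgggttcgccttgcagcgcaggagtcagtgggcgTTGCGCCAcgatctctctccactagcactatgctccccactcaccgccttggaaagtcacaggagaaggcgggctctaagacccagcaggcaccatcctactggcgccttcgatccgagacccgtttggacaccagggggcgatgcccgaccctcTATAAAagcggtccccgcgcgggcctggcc
Cebpb: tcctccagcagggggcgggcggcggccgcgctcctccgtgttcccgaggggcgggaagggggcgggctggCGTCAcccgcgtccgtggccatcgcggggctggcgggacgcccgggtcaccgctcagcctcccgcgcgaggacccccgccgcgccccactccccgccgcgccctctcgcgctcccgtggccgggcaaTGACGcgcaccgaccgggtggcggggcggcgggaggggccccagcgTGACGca
Capitals mark matches, on either strand, to the letters TTGCGCCA, to the letters TGACG (which read backwards as their complement on the opposite strand) and to the TATA box letters TATAAA. These motifs were chosen with the sequences in view, and none of the marked matches overlap. The Cebpa window held 1 TTGCGCCA, from 185 to 178 bases before the start, and 1 TATAAA, from 30 to 25 bases before it. The Cebpb window held 3 matches to TGACG, the core of the cyclic AMP response element, which began 180, 53 and 7 bases before the start. A TATAAA stood 22 bases after the annotated Cebpb start, outside the printed window. Of 32851 promoter windows of this length, 0.234% held TTGCGCCA, 17.8% TGACG and 12.4% TATAAA. TTGCNNAA, a core of the C/EBP consensus, was in 9.56% of the windows and in none of those of Cebpa, Cebpb, Cebpg and Trib2. Guanine and cytosine made up 66.4% of the Cebpa window and 81.6% of the Cebpb window. A match is a run of letters and was not tested as a binding site, and no library here measures binding.

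Libraries held between 27812855 and 28814798 expected counts (estimated reads per gene). Levels of a gene across libraries are given in CPM, counts scaled to library size with TMM factors, and levels of different genes in FPKM, which is also divided by gene length. The MLL-ENL pair was the wider of both pairs, with a chi-square per degree of freedom of 2.06 between the MLL-ENL dYEATS libraries and 96.8 between the MLL-ENL libraries, so neither pair was a library deposited more than once. In MLL-ENL replicate 1 a ribosomal RNA gene held 9.25% of all counts, against 4.94% to 5.46% in the other libraries. The transcripts of both fusion partners did not pass the test (Mllt1, adjusted p = 0.692, and Kmt2a, 0.952, edgeR). Counts per gene do not separate the cells' own transcripts from those of the fusion, so the level of either fusion was not measured. The labelled cell type was checked with 7 stem and progenitor markers, of which Cd34, Ly6a and Flt3 were under the filter on low counts, Kit and Cd48 fell, and Ptprc and Cd93 did not pass the test. Most markers of granulocytes and monocytes were abundant, but Ly6g lay between 0.545 and 1.05 CPM and Csf1r between 3.92 and 9.54 CPM. Of these markers 1 of 8 was higher and 3 of 8 were lower. Of 7 markers of T and NK cells 5 were at 0 in all 4 libraries. Thy1 was lower, at 0.136 and 0 CPM in MLL-ENL dYEATS cells and 4.18 and 3.13 CPM in MLL-ENL cells. Thy1 and Cd48 passed the filter on low counts only through MLL-ENL cells, the group where they were higher. Among erythroid markers Hbb-bs and Hba-a1 were at 0, Klf1 and Epor lay under 1.4 CPM, and Tfrc, the transferrin receptor of dividing cells, lay between 514 and 727 CPM and did not pass the test. Of 6 stromal and endothelial markers Cdh5 and Kdr were at 0, and the list's sum, 60.8 and 60.2 CPM in MLL-ENL dYEATS cells and 5.42 and 6.05 CPM in MLL-ENL cells, was nearly all Pecam1. Pecam1, which blood cells also express, lay at 60.5 and 59.9 CPM in MLL-ENL dYEATS cells and 4.74 and 5.65 CPM in MLL-ENL cells and was called higher. Among dendritic cell markers Itgax was called higher and H2-Ab1 lower. Itgax lay at 2.25 and 1.85 CPM in MLL-ENL dYEATS cells and 0.0373 and 0.0711 CPM in MLL-ENL cells. H2-Ab1 lay at 0.0681 and 0 CPM in MLL-ENL dYEATS cells and 4.41 and 3.45 CPM in MLL-ENL cells. Both passed the filter only through the group where they were higher. No marker of B cells, megakaryocytes or mast cells, basophils and eosinophils was called, and those of B cells were all under the filter.

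Cebpa was the only member called in the edgeR test of all libraries. Its level was 86.1 and 82.5 CPM in MLL-ENL dYEATS cells, against 277 and 282 CPM in MLL-ENL cells. Both MLL-ENL dYEATS libraries lay far below both MLL-ENL libraries, and the gap between the groups was many times the distance within either pair. The mean was 84.3 ± 2.53 CPM in MLL-ENL dYEATS cells and 279 ± 3.10 CPM in MLL-ENL cells (SD, n = 2 each), so that 30.2% of the MLL-ENL level was left. The log2 fold change, MLL-ENL dYEATS over MLL-ENL, was -1.73 ± 0.10 (SE; 95% interval -1.99 to -1.47; adjusted p = 0.00065, edgeR's quasi-likelihood test with Benjamini-Hochberg adjustment over 13245 genes). It was called lower in all 17 alternative analyses, including those that left out a library, with log2 fold changes between -1.77 and -1.65 and adjusted p between 1.22e-23 and 0.0225.

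Cebpa was 1 of 7 tested members called in either direction (14.3%), where 16.9% of all 13245 tested genes were called, and the 1 of 7 called lower stands beside 9.84% over all genes. The share of members called is thus near that of all genes. No member was called higher (0 with edgeR, DESeq2 and limma-voom, 1 at an unadjusted p under 0.05), where 7.04% of all genes were. Groups did not overlap in CPM for 5 of the 7 tested members, near the 64.3% over all tested genes.

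Cebpa lies on chromosome 7 at 35119293 to 35121928 (GRCm38, + strand). Gm45091, an antisense transcript whose exons overlap the Cebpa exon, had 0 and 0 counts in MLL-ENL dYEATS cells and 0 and 4 counts in MLL-ENL cells. Gm35665, a long non-coding RNA gene downstream, had no counts in any library. The strand setting of the authors' counting is unknown here, and at most 4 reads lay on these neighbours beside 2364 or more on Cebpa.

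In the bulk RNA of a culture, fewer cells that express a gene and less RNA per cell cannot be told apart. The summed level of the 8 granulocyte and monocyte markers was 3170 and 3250 CPM in MLL-ENL dYEATS cells, against 5860 and 5190 CPM in MLL-ENL cells. Elane made up most of it, at 1773 and 1817 CPM in MLL-ENL dYEATS cells, against 3728 and 3106 CPM in MLL-ENL cells. Elane, Mpo and Ly6c2 were called lower and Csf1r higher, while Itgam, Fcgr3, Csf3r and Ly6g did not pass the test. The summed level of the 7 stem and progenitor markers was 530 and 534 CPM in MLL-ENL dYEATS cells, against 509 and 645 CPM in MLL-ENL cells, and was nearly all Ptprc and Cd93. Within that list Kit lay at 2.62 and 3.91 CPM in MLL-ENL dYEATS cells, against 50.4 and 66.9 CPM in MLL-ENL cells. Cd48 lay at 0.0341 and 0.0698 CPM in MLL-ENL dYEATS cells, against 3.51 and 4.94 CPM in MLL-ENL cells. The part that a shift in the makeup of the cultures could have in the Cebpa result was not tested.

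**Figure D1:**
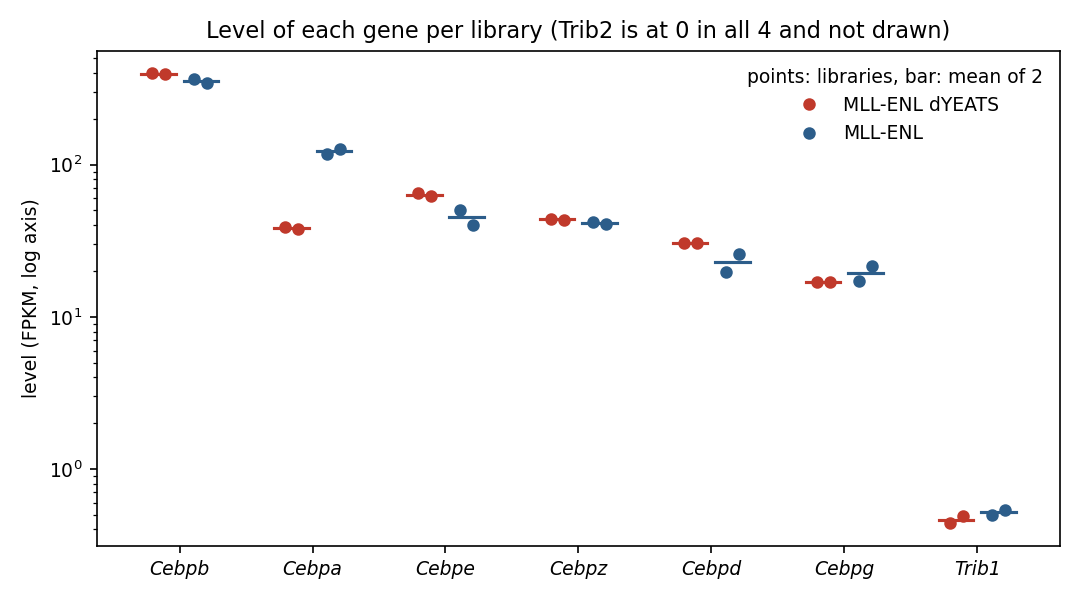
Level of the 7 members with counts in FPKM on a log axis, with 1 point per library and a bar at the mean of 2 libraries, MLL-ENL dYEATS in red and MLL-ENL in blue. Cebpa has both red points, at 39.2 and 37.6 FPKM, far below both blue points, at 118 and 128 FPKM, and Cebpb is the highest gene in every library.

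Per gene length, Cebpb gave the most abundant C/EBP transcript in both groups. In MLL-ENL dYEATS cells the order of mean FPKM was Cebpb (397), Cebpe (63.4), Cebpz (43.9), Cebpa (38.4), Cebpd (30.5), Cebpg (16.9), Trib1 (0.465) and Trib2 (0), and the libraries of neighbours in this order did not overlap. In MLL-ENL cells it was Cebpb (355), Cebpa (123), Cebpe (45.4), Cebpz (41.4), Cebpd (22.9), Cebpg (19.5), Trib1 (0.52) and Trib2 (0). There Cebpe and Cebpz overlapped, as did Cebpd and Cebpg, and these neighbours could not be ordered. Cebpa thus stood at rank 4 in MLL-ENL dYEATS cells and at rank 2 in MLL-ENL cells. Levels between genes also depend on the gene models behind the authors' effective lengths.

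Cebpb encodes the factor that can stand in for C/EBP-alpha in myeloid cells under stress. Its level was 475 and 472 CPM in MLL-ENL dYEATS cells, against 473 and 409 CPM in MLL-ENL cells. The groups overlapped, with MLL-ENL replicate 1 at the level of the mutant and MLL-ENL replicate 2 below it. The log2 fold change was 0.10 with a 95% interval of -0.19 to 0.40 (adjusted p = 0.59), an interval that does not reach a change of the size seen for Cebpa. Without MLL-ENL replicate 1 the log2 fold change was 0.21, and without MLL-ENL replicate 2 it was 0, in fits that called most of all tested genes. Tmem189, on the other strand, shares exon sequence with Cebpb. Tmem189 lay at 49.7 and 50.2 CPM in MLL-ENL dYEATS cells and 68.5 and 63.1 CPM in MLL-ENL cells (adjusted p = 0.0664), so reads that were split between these genes leave the small Cebpb difference uncertain.

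Cebpd, a family member induced by inflammatory cytokines, lay at 104 and 103 CPM in MLL-ENL dYEATS cells, against 72.03 and 88.62 CPM in MLL-ENL cells. Both mutant libraries were higher, but the MLL-ENL libraries were wide apart. The difference did not pass the test (log2 fold change 0.37, 95% interval 0.02 to 0.71, adjusted p = 0.131). It was called higher when MLL-ENL replicate 1 was left out (0.22) and when MLL-ENL replicate 2 was (0.53). Spidr, on the opposite strand, overlaps exons of Cebpd, and how their reads were split is uncertain.

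Cebpe, which directs the making of secondary granules, lay at 60.3 and 58.1 CPM in MLL-ENL dYEATS cells, against 51.0 and 37.7 CPM in MLL-ENL cells. Again both mutant libraries were higher and the MLL-ENL pair was wide apart. The log2 fold change of 0.42 (95% interval -0.01 to 0.84) was not called (adjusted p = 0.155). It was called higher when MLL-ENL replicate 1 was left out (0.65) and when MLL-ENL replicate 2 was (0.22). It was 0.52 and called (adjusted p = 0.0277) once a trend with gene length was removed from each library. Removing a library of the MLL-ENL pair leaves the spread to be estimated from the close MLL-ENL dYEATS pair, with the lone library assumed to vary like it.

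Cebpg encodes a short family member that pairs with other leucine zipper proteins and lacks a strong activation domain of its own. It lay at 46.2 and 45.8 CPM in MLL-ENL dYEATS cells, against 57.9 and 61.0 CPM in MLL-ENL cells. Both mutant libraries were lower, and the log2 fold change of -0.37 (95% interval -0.64 to -0.10) missed the threshold (adjusted p = 0.0741). It was called lower without MLL-ENL replicate 1 (-0.41), without MLL-ENL replicate 2 (-0.33) and once the trend with gene length was removed (-0.41, adjusted p = 0.0296). On log2(FPKM + 1) the log2 fold change was -0.19 (adjusted p = 0.473, limma). The gene length that the count and FPKM tables imply for Cebpg was 2.80 and 2.74 kb in MLL-ENL dYEATS cells and 3.19 and 2.85 kb in MLL-ENL cells, and CPM takes no account of that difference. Cebpg is the neighbour of Cebpa within the family, on the - strand of chromosome 7 at 35046422 to 35056573, with 62.7 kb between them, and Pepd, on its other side, did not pass the test (adjusted p = 0.599).

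Cebpz shares the family's name but has no leucine zipper, and its product is a nucleolar protein of ribosome assembly. It lay at 146 and 146 CPM in MLL-ENL dYEATS cells, against 149 and 140 CPM in MLL-ENL cells. The groups overlapped, and the log2 fold change was 0.02 with a 95% interval of -0.25 to 0.28 (adjusted p = 0.932). The estimate was -0.03 without MLL-ENL replicate 2. Cebpzos, an antisense neighbour that shares exon sequence, lay between 4.93 and 5.41 CPM in the 4 libraries.

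The remaining C/EBP genes lie on chromosome 2 at 167688915 to 167690418 (Cebpb, + strand), chromosome 16 at 15887286 to 15891031 (Cebpd, + strand), chromosome 14 at 54710360 to 54712174 (Cebpe, - strand) and chromosome 17 at 78919006 to 78937066 (Cebpz, - strand), in GRCm38.

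Transcripts of the Tribbles regulators were scarce in both groups. Trib1 (chromosome 15, 59648350 to 59657099) had 50 and 54 counts in MLL-ENL dYEATS cells and 56 and 60 counts in MLL-ENL cells, or 1.70 and 1.88 CPM in MLL-ENL dYEATS cells against 2.09 and 2.13 CPM in MLL-ENL cells. The exact 95% counting intervals of the 4 libraries, between 1.26 and 2.75 CPM in all, overlapped, and the log2 fold change of -0.24 (95% interval -0.77 to 0.30) was not called (adjusted p = 0.487, edgeR). Trib2 (chromosome 12, 15791727 to 15816922) had 0 counts in every library, which allows a level of up to 0.102 and 0.105 CPM in MLL-ENL dYEATS cells and up to 0.112 and 0.107 CPM in MLL-ENL cells, by the floor of 3 counts, a limit on the upper side alone. Per length, Cebpa was at 89.1 and 76.7 times the FPKM of Trib1 in MLL-ENL dYEATS cells and at 235 and 236 times in MLL-ENL cells. Levels of mRNA do not measure TRIB1 protein or the breakdown of C/EBP-alpha.

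**Figure D2:**
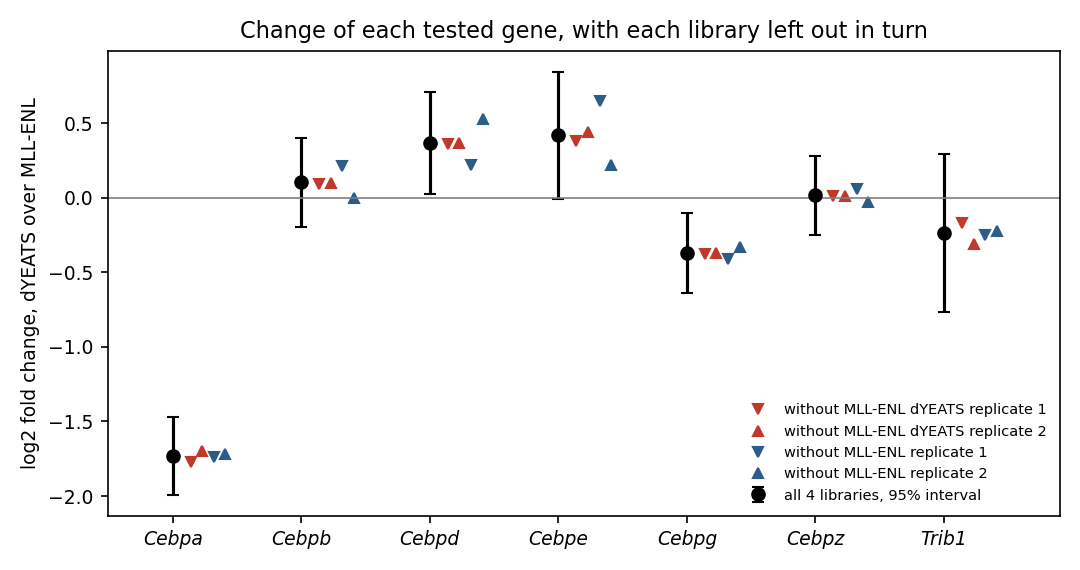
Log2 fold change, MLL-ENL dYEATS over MLL-ENL, of the 7 tested members, with black points and 95% intervals from all 4 libraries and triangles for the value without each library. Cebpa stays between -1.77 and -1.70 whichever library is left out, while Cebpd and Cebpe move between 0.22 and 0.65 with the MLL-ENL library that is left out.

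Cebpa made up a smaller part of the C/EBP transcripts in both MLL-ENL dYEATS libraries than in both MLL-ENL libraries. Of the summed FPKM of the 5 leucine zipper C/EBP genes, Cebpa made up 7.12% and 6.93% in MLL-ENL dYEATS cells, against 20.5% and 22.9% in MLL-ENL cells. Cebpb made up 72.5% and 72.9% in MLL-ENL dYEATS cells, against 64.2% and 61.3% in MLL-ENL cells. Cebpe made up 11.8% and 11.5% in MLL-ENL dYEATS cells, against 8.81% and 7.23% in MLL-ENL cells. The groups did not overlap for these genes or for Cebpd, whereas the Cebpg share of the mutant lay between those of the MLL-ENL libraries. The sum itself was 551 and 542 FPKM in MLL-ENL dYEATS cells and 574 and 558 FPKM in MLL-ENL cells. A two-sided exact permutation test gave p = 1.0 for the Cebpg share and p = 0.333 for the sum and for every other share. With 2 libraries against 2 the smallest p this exact test can give is 0.333, so no share can pass a threshold of 0.05. Shares add up to the whole, so a lower share of Cebpa raises the others by construction.

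The ratio of Cebpb to Cebpa FPKM was 10.2 and 10.5 in MLL-ENL dYEATS cells, against 3.13 and 2.68 in MLL-ENL cells. For Cebpe to Cebpa it was 1.65 and 1.65 in MLL-ENL dYEATS cells, against 0.430 and 0.316 in MLL-ENL cells. Cebpe thus lay above Cebpa in both mutant libraries and below it in both MLL-ENL libraries.

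**Figure D3:**
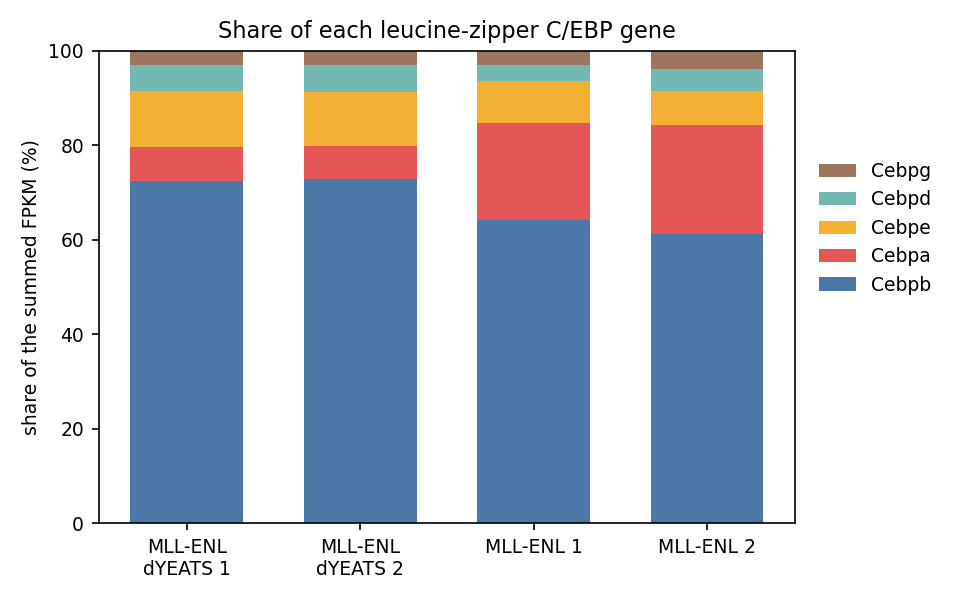
Share of each leucine zipper C/EBP gene in their summed FPKM (%), stacked, with 1 bar per library. The Cebpa segment is 7.12% and 6.93% in MLL-ENL dYEATS cells and 20.5% and 22.9% in MLL-ENL cells, and Cebpb is the largest segment in all 4.

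Genes around the C/EBP proteins were counted in 9 lists, with 116 genes tested. Of these 20 were higher and 12 lower, 17.2% and 10.3%, where 7.04% and 9.84% of all tested genes were, and the median log2 fold change was 0.09, against -0.01 over all tested genes. Fewer list genes were called in both directions without either MLL-ENL dYEATS library, and more without either MLL-ENL library. Fits without an MLL-ENL library called most of all tested genes, so the list counts given below for such fits do not single out a list.

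The list of COP1 ligase and MEK partners of Tribbles, which also holds Trib3 and Stk40, had no called gene in the main fit. Of its 11 tested genes 0 were higher and 0 lower (edgeR, DESeq2 and limma-voom), where edgeR called 7.04% and 9.84% of all tested genes. At an unadjusted p under 0.05, 2 were higher and 0 lower, and the median log2 fold change was 0.06. The edgeR fit with a replicate block called 1 of them higher. More genes of the list were called with either MLL-ENL library left out, in fits that called most of all tested genes. Cop1 itself, the ligase subunit that binds Tribbles, lay at 81.5 and 85.3 CPM in MLL-ENL dYEATS cells, against 69.8 and 77.3 CPM in MLL-ENL cells (adjusted p = 0.328). Trib3, the family member that does not drive leukaemia in mice, lay at 19.7 and 20.2 CPM in MLL-ENL dYEATS cells, against 26.0 and 20.2 CPM in MLL-ENL cells (adjusted p = 0.41). Per length, Trib3 averaged 12.5 FPKM in MLL-ENL dYEATS cells and 14.4 FPKM in MLL-ENL cells, far above Trib1 in both. Cop1 and Trib3 were chosen after their values were seen.

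Target genes of C/EBP-alpha moved both ways. Of 16 tested genes 4 were higher and 5 lower, with a median log2 fold change of -0.16. Mpo, the myeloperoxidase of primary granules, lay at 59.4 and 62.4 CPM in MLL-ENL dYEATS cells, against 594 and 466 CPM in MLL-ENL cells, so the groups were far apart although the MLL-ENL pair differed. Its log2 fold change was -3.12 ± 0.16 (SE, adjusted p = 0.000429). Sox4, which C/EBP-alpha is known to repress in mouse progenitors, fell to 0.773 ± 0.304 CPM in MLL-ENL dYEATS cells, against 15.6 ± 1.90 CPM in MLL-ENL cells (SD, n = 2 each; adjusted p = 0.000771, edgeR). Elane, the neutrophil elastase gene, fell by 0.93 on the log2 scale (adjusted p = 0.0105). The genes called higher with the largest changes were Id2, an inhibitor of helix-loop-helix factors, at 1.70, Csf1r, the receptor of macrophage colony-stimulating factor, at 0.96, and Il6ra, the interleukin 6 receptor, at 0.61. Csf3r, the granulocyte colony-stimulating factor receptor and a classical C/EBP-alpha target, lay at 31.4 ± 1.29 CPM in MLL-ENL dYEATS cells and 31.2 ± 0.391 CPM in MLL-ENL cells (SD, n = 2 each; adjusted p = 0.966, edgeR), and was chosen after its values were seen. The calls of Elane (adjusted p = 0.12 and 0.0964) and Il6ra (0.342 and 0.259) were lost when MLL-ENL dYEATS replicate 1 or 2 was left out, and that of Csf1r (0.102) without replicate 1. Leaving out MLL-ENL dYEATS replicate 1 or 2 gave 1 and 2 higher and 3 and 2 lower, and leaving out MLL-ENL replicate 1 or 2 gave 5 and 6 higher and 9 and 8 lower. Mpo, Elane, Csf1r and Csf3r are also granulocyte and monocyte markers.

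Target genes of C/EBP-epsilon in late granulocytes were mostly higher. Of 12 tested genes 7 were higher and 1 lower, with a median log2 fold change of 1.76. S100a9, a subunit of calprotectin, lay at 200 and 196 CPM in MLL-ENL dYEATS cells, against 42.8 and 38.1 CPM in MLL-ENL cells. S100a8, its partner, lay at 124 and 143 CPM in MLL-ENL dYEATS cells, against 34.7 and 25.3 CPM in MLL-ENL cells. Both were called higher (adjusted p = 0.000457 and 0.00198), as was the matrix protease gene Mmp9 (log2 fold change 2.53, adjusted p = 0.00234). Ngp, a secondary granule protein, was the 1 gene called lower, at 22.1 and 19.8 CPM in MLL-ENL dYEATS cells, against 59.0 and 49.1 CPM in MLL-ENL cells. Ltf and Camp, secondary granule genes well known as C/EBP-epsilon targets, were not called and were picked with their values known. Their log2 fold changes were -0.27 and -0.50 (adjusted p = 0.59 and 0.0924). Lcn2, 1 of the 7 genes called higher, was also picked with its values known. It lay at 34.91 and 37.41 CPM in MLL-ENL dYEATS cells, against 13.03 and 11.59 CPM in MLL-ENL cells. The log2 fold change of Lcn2 was 1.55 (adjusted p = 0.00158, edgeR). The list had between 6 and 8 genes higher with a library left out, of which 6 or 7 were among these 7, and 2 lower without MLL-ENL replicate 1 or 2. It had 4 higher at a minimum of 5 CPM in 2 libraries, where fewer genes were tested, and 4 with limma on log2(FPKM + 1) without a filter. Mmp8, 1 of the 7, had 25 and 16 counts in MLL-ENL dYEATS cells and 3 and 3 counts in MLL-ENL cells, so it passed the filter on low counts only through the group where it was higher.

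Inflammatory target genes of C/EBP-beta and C/EBP-delta were mostly below the filter, with 5 of 14 tested. Msr1, a scavenger receptor gene at under 1 CPM that was chosen after its values were seen, was called higher (log2 fold change 1.66, adjusted p = 0.0448, edgeR). It had 18 and 16 counts in MLL-ENL dYEATS cells and 4 and 6 counts in MLL-ENL cells. Msr1 thus passed the filter on low counts only through the group where it was higher. In this list 0 were lower with edgeR or limma-voom, 1 with DESeq2 and 2 at an unadjusted p under 0.05. Msr1 was not called in 8 of 16 alternatives, among them those without MLL-ENL dYEATS replicate 1 or 2 or MLL-ENL replicate 1 (adjusted p = 0.313, 0.223 and 0.0664). The list had 1 higher and 0 lower without MLL-ENL dYEATS replicate 1, 0 and 0 without MLL-ENL dYEATS replicate 2, 1 and 2 without MLL-ENL replicate 1 and 2 and 2 without MLL-ENL replicate 2. Il6, Il10, Ptx3 and Ccl2 had no counts in any library.

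Of 10 tested regulators known to bind the Cebpa enhancer in myeloid progenitors, 4 were higher and 2 lower, with a median log2 fold change of 0.04. Gata2, a factor of early progenitors, lay at 10.01 and 10.12 CPM in MLL-ENL dYEATS cells, against 0.56 and 0.605 CPM in MLL-ENL cells (log2 fold change 4.10, adjusted p = 0.000387). Runx1, which is needed for Cebpa expression in mouse blood progenitors, lay at 54.3 and 51.2 CPM in MLL-ENL dYEATS cells, against 105 and 118 CPM in MLL-ENL cells (log2 fold change -1.08, adjusted p = 0.00429). Cbfb, the partner of RUNX1, was higher by 0.54 on the log2 scale, as was Lmo2, an adaptor of blood transcription complexes, at 0.54, and Meis1 fell by 0.76. Spi1, the gene of PU.1, was called higher at 0.46 and lies outside the rule for named genes, so it was chosen after its values were seen. The calls of Cbfb (adjusted p = 0.452 and 0.461), Lmo2 (0.442 and 0.475), Meis1 (0.122 and 0.239) and Spi1 (0.595 and 0.563) were lost when either MLL-ENL dYEATS library was left out, which left Gata2 higher and Runx1 lower. Without MLL-ENL replicate 1 the list had 5 lower.

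Other leucine zipper genes, whose products can pair with C/EBPs or share their sites, had 3 higher and 2 lower of 18 tested (median log2 fold change 0.24). Fos and Fosl1, subunits of AP-1, were higher by 2.93 and 3.13 on the log2 scale (adjusted p = 0.00235 and 0.00106), and Nfil3 by 0.70. Tef and Dbp, of the PAR zipper family, fell by 0.78 and 0.88. The calls of Nfil3, Tef and Dbp ended without MLL-ENL dYEATS replicate 1 (adjusted p = 0.145, 0.184 and 0.296) and without replicate 2 (0.236, 0.0755 and 0.152). Without MLL-ENL replicate 1 the list had 8 higher and 3 lower, and without MLL-ENL replicate 2 it had 8 and 8. Ddit3, the gene of the C/EBP inhibitor CHOP, was not called and was chosen with its values known (log2 fold change -0.30, adjusted p = 0.458).

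Of 21 tested signals and enzymes that act on C/EBP proteins, 0 were higher with edgeR (0 with limma-voom, 1 with DESeq2, 2 at an unadjusted p under 0.05) and 1 was lower. The lower gene was Smarca2, an ATPase of SWI/SNF complexes that C/EBP-alpha can recruit. It lay at 24.2 and 22.1 CPM in MLL-ENL dYEATS cells, against 137 and 110 CPM in MLL-ENL cells (adjusted p = 0.000771). Smarca4, another SWI/SNF ATPase gene of the list, was picked with its values known and was not called (adjusted p = 0.63, edgeR). Its level was 337 and 318 CPM in MLL-ENL dYEATS cells, against 293 and 323 CPM in MLL-ENL cells. Among 13 cell cycle partners of C/EBP-alpha, 2 were higher with edgeR and limma-voom and 3 with DESeq2, and 0 were lower with any of these tools (1 at an unadjusted p under 0.05). They were Cdkn1a, the gene of the CDK inhibitor p21 (log2 fold change 0.85, adjusted p = 0.00672), and E2f2 (0.57, adjusted p = 0.0252), both not called without MLL-ENL dYEATS replicate 1 (0.0674 and 0.412) or 2 (0.0758 and 0.337). Of 12 genes that control which C/EBP isoform is translated, 0 were higher with edgeR, DESeq2 and limma-voom (2 at an unadjusted p under 0.05), and Eif2ak2, the gene of the kinase PKR, was lower (log2 fold change -0.61, adjusted p = 0.0174), but not without MLL-ENL dYEATS replicate 1 or 2 (0.343 and 0.384). Without MLL-ENL replicate 1 or 2, these 3 lists had 10 and 12, 6 and 9, and 3 and 6 genes higher, and 5 and 6, 5 and 2, and 5 and 4 lower.

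**Figure D4:**
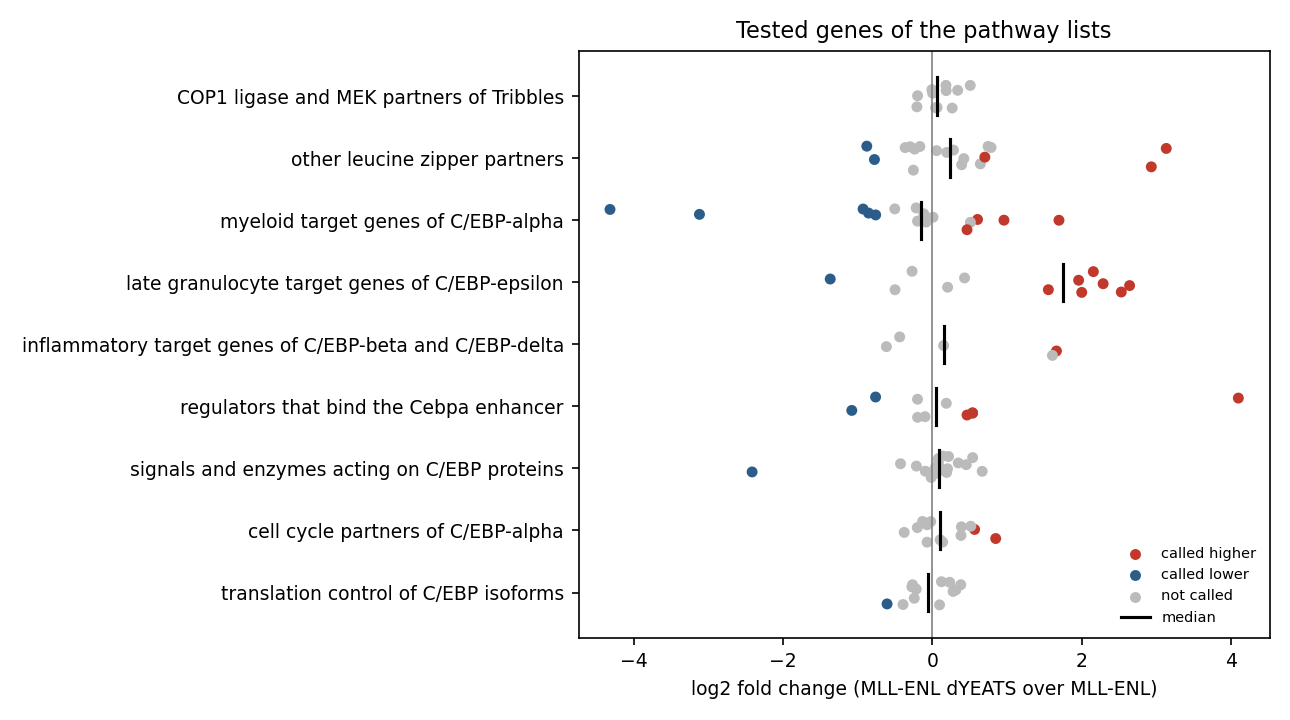
Log2 fold change, MLL-ENL dYEATS over MLL-ENL, of each tested gene in the 9 lists, red where called higher, blue where called lower and grey where not called, with a black bar at each list's median. The late granulocyte list has its median at 1.76, while the COP1 ligase list lies around its median of 0.06 with no coloured point.

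The genes whose profile over the 4 libraries lay nearest to that of Cebpa, by the distance between centred log2 CPM values, were Cd1d1, which presents lipids to T cells (distance 0.0384), Zmynd11, a reader of methylated histone H3 (0.0801), and Slc9a9, an endosomal ion exchanger (0.0826). Their log2 fold changes were -1.70, -1.74 and -1.73. With 4 libraries in 2 groups the distance mostly measures a like fold change, and 38 genes lay within 0.25 of Cebpa.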

How the data were processed

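Per the labels' protocols, RNA from an RNeasy kit was selected with a Lexogen poly(A) kit and made into libraries with a Swift kit. Reads were handled with RSEM 1.3.3, STAR 2.7.8a, cutadapt 2.3 and FastQC 0.11.8 on GRCm38, per the submitters' processing notes. The sources used here give no settings, annotation or strand. The authors deposited expected counts per gene (RSEM estimates, whole numbers as deposited) and FPKM, deposited by the authors as length- and depth-scaled values.

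Groups came from the sample titles. Counts were filtered (filterByExpr, 13245 genes left), scaled by TMM and tested with edgeR 4.0.16 (R 4.3.3; glmQLFit with legacy set to true, Benjamini-Hochberg adjustment, called at an adjusted p under 0.05), after a check on simulated data. SE is the log2 fold change divided by the square root of F. With 2 residual and 3.41 prior degrees of freedom the intervals rest on few libraries. Intervals and floors of counts cover counting error only, since reads had no molecular identifiers.

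All list symbols but Rfwd2, an older name of Cop1, were found, and of 2 identifiers named Ddit3 the one with reads was used. The rule names all members, per list up to 3 called genes per direction, by size of change, with 1 CPM or more on average in the group where they are higher, the 3 nearest profiles of a called member, and Mllt1 and Kmt2a. Members and lists were chosen with earlier results of these data known. Positions came from GENCODE M21 (GRCm38). Alternatives used DESeq2 1.42.0, limma 3.58.1 (voom, and log2(FPKM + 1) or log2(FPKM + 0.1)), other scalings and filters, a replicate block, each library left out, a robust fit, removal of a gene-length trend (lowess, span 0.3) and removal of 449 abundant genes.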

Additional observations from a re-analysis of the deposited data

How the results depend on the processing

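Cebpa was called lower in all 17 alternatives. In the 13 that used all 4 libraries no other member was called except Cebpe (0.52) and Cebpg (-0.41) once the gene-length trend was removed, which gave 1 member higher and 2 lower and put Cebpz at 0. The cause was not tested. Leaving out 1 library gave 0 to 3 members higher and 1 to 2 lower, with log2 fold changes of 0 to 0.21 for Cebpb, 0.22 to 0.53 for Cebpd, 0.22 to 0.65 for Cebpe, -0.41 to -0.33 for Cebpg and -0.03 to 0.06 for Cebpz. Over all genes it gave 548 to 4598 higher and 844 to 4501 lower, against 932 and 1303 with all libraries, and over the lists 11 to 61 higher and 5 to 38 lower. A minimum of 5 CPM in 2 libraries called 545 and 805 genes, with fewer genes tested, and limma on log2(FPKM + 1) called 837 lower and 12 list genes higher. Without a filter limma called 293 higher and 381 lower, with 7 and 3 in the lists. In CPM the Cebpa, Cebpb and Cebpd shares differed by -19.93, 13.07 and 4.6 percentage points, against -14.67, 9.9 and 1.54 in FPKM, since CPM does not divide by length. The Cebpg share differed by -0.79 to 0.08 points with a library left out. The replicate block called 1435 genes higher and changed no member's call. The design does not pair libraries by number, and their deviations from the group means correlated at -0.0677 over genes. Of 32 list genes called, 17 lost the call without 1 of the MLL-ENL dYEATS libraries and 10 kept it in every alternative. Trib1, with at most 60 counts, and Trib2, with none, are limited by depth.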
